A study of Raphanus sativus with 12 samples.

Results

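The 37 radish genes described here code for the enzymes that build porphyrins and turn them into chlorophyll, heme, bilins and siroheme. They were chosen by the enzyme name in the gene description of the deposited expression table, from glutamyl-tRNA reductase at the entry of the pathway to chlorophyll synthase and heme oxygenase at its ends, and make up 37 of the 30161 genes listed. Their transcripts were measured in leaf blades of Raphanus sativus, diploid material XHT, taken 120 days after sowing, in reproductive growth, and 30 days after sowing, in vegetative growth. All plants grew untreated at 25 °C during 16 hours of light and at 23 °C in the dark. The 12 libraries comprised, per age, 3 of input RNA, sequenced as in standard RNA-seq, and 3 immunoprecipitated for N6-methyladenosine (m6A), a methyl mark on adenosines within mRNA. Each library pooled the leaves of 3 plants, so the spread between libraries is a spread between pools, and the study's title places the comparison in bolting and flowering. Plant age and growth stage went together and cannot be told apart, nor can any difference in sampling date. In whole blades, fewer cells of a type and less RNA per cell cannot be told apart either.

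Plants make all tetrapyrroles in the plastid from glutamate bound to its tRNA. Glutamyl-tRNA reductase (GluTR) takes the controlling first step to delta-aminolevulinate (ALA), several molecules of which are joined in stages into protoporphyrin IX. There the path forks: magnesium chelatase sends the ring toward chlorophyll, and ferrochelatase puts iron into it to make heme, part of which heme oxygenase opens to the bilins that phytochromes carry. Chlorophyll intermediates are phototoxic when free, and in flowering plants protochlorophyllide reductase works only in light.

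Levels are FPKM, the fragments of a gene corrected for transcript length and for library size, as the authors deposited them for the 6 input libraries. The FPKM of all genes summed to between 636795 and 694436 per library, which says nothing of read depth, so the depth behind each value is unknown. The 3 libraries of 120-day blades correlated with one another at 0.971 to 0.985 across genes, whereas 30-day replicate 3 correlated with the other two 30-day libraries at only 0.895 and 0.835. The median tested gene stood at 8.17, 7.88 and 7.45 FPKM in the 120-day libraries and at 11.6, 10.4 and 10.9 FPKM in the 30-day libraries, so most genes had lower relative levels at 120 days. The labelled tissue was checked with 37 leaf mesophyll markers, all of them photosynthesis genes by name. They summed to 78453, 88568 and 98385 FPKM at 120 days and to 24461, 27690 and 17715 FPKM at 30 days. Of 11 named floral organ identity genes none passed the filter on low values, the highest library value being 1.82 FPKM at 120 days and 3.24 FPKM at 30 days. The wider floral list held 68 genes, many of them MADS-box genes also active in leaves. Of its 21 tested genes, 2 were higher and 9 lower at 120 days, against 8.40 and 37.6% of all genes tested. AGL3 (Rsa10020725), one of the 2 higher genes, is called SEPALLATA 4 in Arabidopsis and was picked out after its values were seen. It had 9.07, 4.12 and 5.01 FPKM at 120 days and was listed at 0, 0 and 0.27 FPKM at 30 days.

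Many genes of the pathway were higher in 120-day blades. On the magnesium branch to chlorophyll 9 of 14 tested genes were called higher, beside 8.40% of all genes tested. None of the 5 heme and bilin genes was, though ferrochelatase-2-like came close to the threshold (adjusted p = 0.057 by limma). The difference between branches was not tested. Together the 37 pathway genes held 2430, 2820 and 2859 FPKM in the 120-day libraries, against 1561, 1733 and 1414 FPKM in the 30-day libraries. Every 120-day library thus lay above every 30-day library. That is 0.357, 0.406 and 0.412% of all FPKM at 120 days and 0.24, 0.257 and 0.222% at 30 days. Of the 37 genes, 36 reached 1 FPKM in at least 3 libraries and were tested; 16 were higher and 1 was lower at 120 days at an adjusted p under 0.05 (limma on log2(FPKM + 1), Benjamini-Hochberg over 21435 genes). Called higher were 44.4% of the tested pathway genes, beside 8.40% of all genes tested; called lower were 37.6% of all genes tested. Of the 36, 2 rare genes passed the filter through 1 age only, so that they had to differ, and the 34 others had 15 higher (44.1%) and 1 lower. The median log2 fold, 120 over 30 days, was 0.67 over the 36 genes and -0.45 over all genes tested, and 34 of the 36 lay above that all-gene median.

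Without overlap between ages, 22 of the 36 had all 120-day values above all 30-day values and 3 had them all below, where the background was 11.6% of all genes above and 49.1% below. These include the 2 rare genes that passed the filter through 1 age only, Rsa10003453 above and Rsa10039584 below. Their lack of overlap was fixed in advance by the filter. Of the genes called, 11 were higher by at least 2-fold (background 5.87%) and none was lower by that much (background 14.5%). The counts moved with the libraries and the scaling. They were 9 higher and 0 lower without 120-day replicate 2 (background 4.45 and 18.2%), and 10 higher and 0 lower without 120-day replicate 3 (background 5.02 and 17.7%). Without 30-day replicate 3 they were 20 higher and 2 lower, against backgrounds of 10.2 and 42.8%; the second lower gene was one of the 2 rare genes. Centring every library on its median gene, which brought the all-gene median to -0.01, gave 24 higher and 0 lower (background 13.8 and 10.2%). Quantile normalization gave 21 higher and 0 lower (background 12.4 and 13.1%). The same 16 genes stayed higher under both scalings and without 30-day replicate 3. Calls in the authors' deposited table numbered 12 among the 37 genes, with 11 higher and 1 lower (background 6.45 and 11.5%), and its 11 higher genes were called here too. The single lower genes differ: the authors' deposited table calls the rare heme oxygenase 1-like gene Rsa10039584 (log2 fold -3.17) and not the abundant Rsa10028713 (log2 fold -1.02, p = 0.17), which was the one called here.

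**Figure D1:**
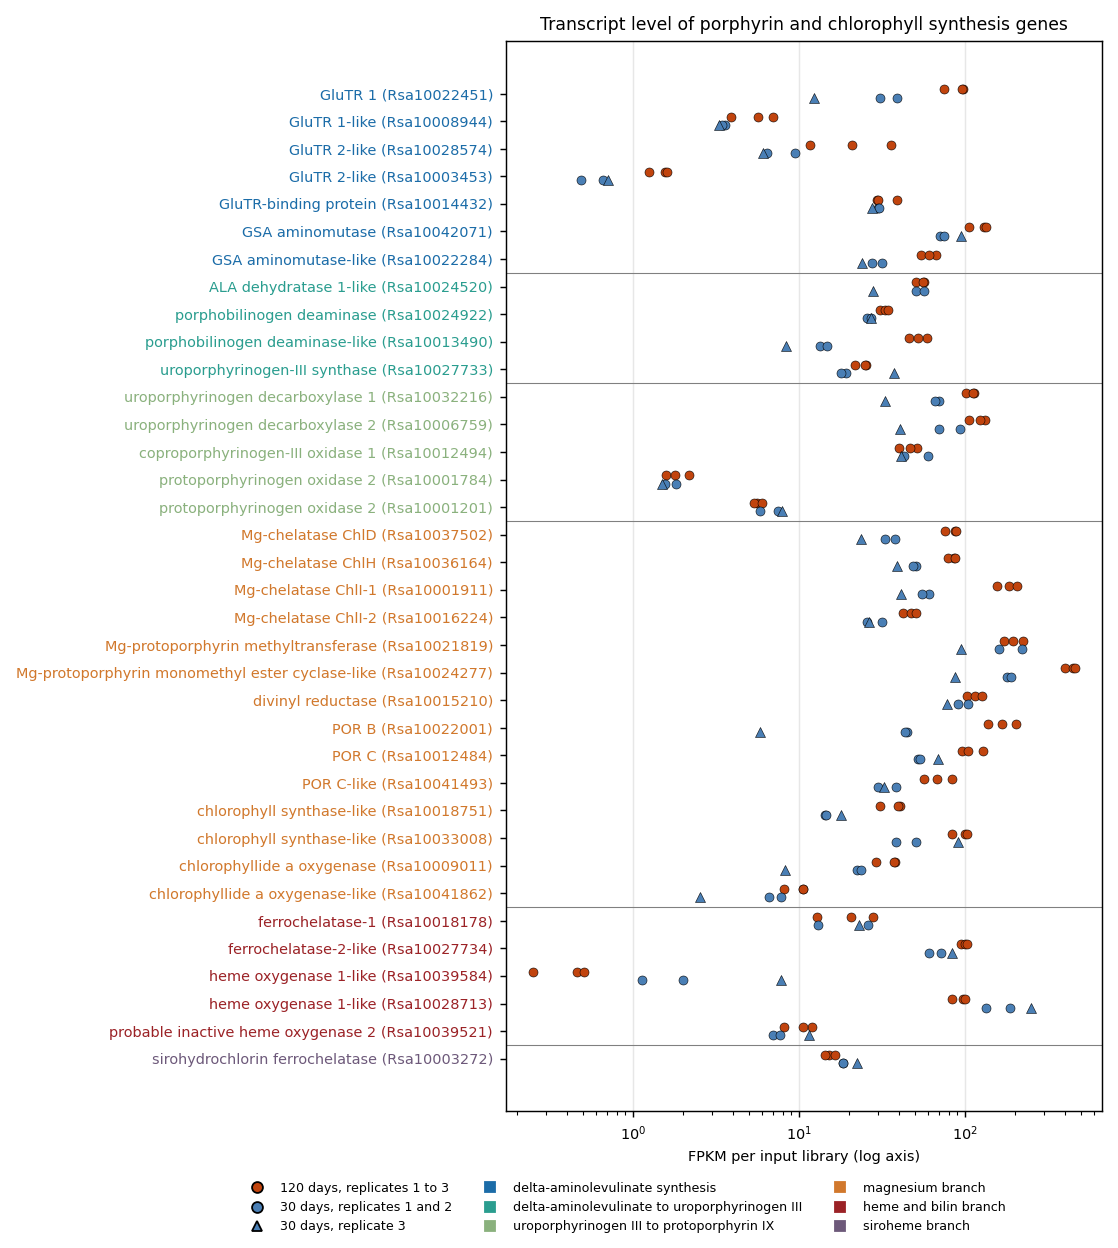
FPKM of each of the 36 tested genes in the 3 libraries of 120-day blades and the 3 of 30-day blades, on a log axis, with genes ordered along the pathway. Along the magnesium branch the 120-day points lie right of the 30-day points for 11 of the 14 tested genes, while among heme and bilin genes they lie right for 1 and left for 2 of 5. For Rsa10039584, 1 of these 2, the filter on low values fixed this in advance.

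Synthesis of ALA, the entry of the pathway, had 5 of its 7 genes higher at 120 days and none lower, with a median log2 fold of 0.61; the 5 include a rare gene that passed the filter through 1 age only. The 7 genes summed to 310.1, 353 and 348 FPKM at 120 days and to 175, 187 and 169.6 FPKM at 30 days. The main GluTR gene in these blades by level was GluTR 1 (Rsa10022451; R09, 1891484 to 1893944, plus strand), whose Arabidopsis counterpart HEMA1 is the light-induced form of green tissue. It read 75.15, 97.92 and 96.61 FPKM at 120 days and 30.93, 39.38 and 12.31 FPKM at 30 days. The ages did not overlap, and 30-day replicate 3 was the lowest library. The log2 fold was 1.81 (SE 0.41, adjusted p = 0.0154 by limma), and 1.33 without 30-day replicate 3 (adjusted p = 0.00329). The adjusted p was 0.0582 without 120-day replicate 2 and 0.0591 without 120-day replicate 3.

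The other 3 GluTR genes were less abundant and also lay higher in every 120-day library, which the filter fixed in advance for Rsa10003453. A GluTR 2-like gene (Rsa10028574) had 36.01, 20.93 and 11.62 FPKM at 120 days and 6.48, 9.44 and 6.12 FPKM at 30 days. Its 120-day libraries spread 3-fold, which is wider than for any other GluTR copy, and its log2 fold was 1.40 (SE 0.40, adjusted p = 0.0296 by limma). Without 120-day replicate 1 that fold was 1.02 and the adjusted p 0.0623; the adjusted p was 0.0867 without 120-day replicate 2 and 0.087 without 30-day replicate 1. A second GluTR 2-like gene (Rsa10003453) averaged 1.47 ± 0.186 FPKM at 120 days and 0.62 ± 0.115 FPKM at 30 days (SD, n = 3 each) and entered the test only through its 120-day values. Its log2 fold of 0.61 is therefore given as a description. The GluTR 1-like copy (Rsa10008944) had a log2 fold of 0.53 (adjusted p = 0.0753 by limma) and passed the threshold when libraries were median-centred (0.0151), quantile-normalized (0.0179), or without 120-day replicate 3 (0.0459).

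Glutamate-1-semialdehyde aminomutase, which makes ALA from the product of GluTR, was higher at 120 days in both of its genes. The more abundant gene (Rsa10042071; R05, 6042243 to 6043878, plus strand) had 106.48, 129.92 and 134.57 FPKM at 120 days and 70.94, 75.56 and 95.43 FPKM at 30 days. These ranges did not overlap, with 120-day replicate 1 nearest to the 30-day values, and the log2 fold was 0.61 (SE 0.18, adjusted p = 0.0343 by limma). Its adjusted p was 0.0521, 0.118 and 0.12 without 120-day replicates 1, 2 and 3, and 0.106 and 0.065 without 30-day replicates 1 and 2. The aminomutase-like gene (Rsa10022284; R09, 882400 to 884868, minus strand) had 54.51, 66.88 and 60.89 FPKM at 120 days and 31.83, 27.74 and 24.02 FPKM at 30 days. With a log2 fold of 1.10 (SE 0.16, adjusted p = 0.00465 by limma) it kept its call under every alternative tried. The GluTR-binding protein (Rsa10014432), known in Arabidopsis to hold GluTR at the plastid membrane, had 29.61, 30.13 and 39.18 FPKM at 120 days and 30.18, 30.44 and 27.74 FPKM at 30 days. Its ages overlapped, and its log2 fold was 0.15 (95% interval -0.23 to 0.52, adjusted p = 0.458 by limma).

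Between ALA and uroporphyrinogen III, 1 of 4 genes was called higher. Porphobilinogen deaminase joins porphobilinogens into a linear tetrapyrrole and is encoded by 2 genes. The deaminase-like gene (Rsa10013490; R07, 21229834 to 21231648, minus strand) had 46.21, 59.47 and 52.60 FPKM at 120 days and 13.42, 14.88 and 8.35 FPKM at 30 days. All 120-day values were at least 3 times any 30-day value, and the log2 fold of 2.05 (SE 0.23, adjusted p = 0.00281 by limma) kept its call under every alternative. The other gene (Rsa10024922) had 31.02, 33.01 and 34.43 FPKM at 120 days and 25.70, 27.46 and 27.18 FPKM at 30 days. Its ages did not overlap either, yet its log2 fold of 0.28 did not pass (adjusted p = 0.0972 by limma; 0.0157 median-centred, 0.0181 quantile-normalized). ALA dehydratase 1-like (Rsa10024520) had 50.58, 56.51 and 56.34 FPKM at 120 days and 50.71, 56.66 and 28.17 FPKM at 30 days. Only 30-day replicate 3 stood apart, and the log2 fold of 0.32 (adjusted p = 0.354 by limma) was 0.02 without 30-day replicate 3. Uroporphyrinogen-III synthase (Rsa10027733), which closes the ring, had a log2 fold of 0.03 (adjusted p = 0.932 by limma), -0.05 with all libraries scaled to an equal FPKM sum, and 0.36 without 30-day replicate 3 (adjusted p = 0.0617).

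From uroporphyrinogen III to protoporphyrin IX, 1 of 5 genes was called, also higher. Uroporphyrinogen decarboxylase trims the side chains of the ring. Its first gene (Rsa10032216; R05, 34272822 to 34274431, minus strand) had 101.27, 113.69 and 112.67 FPKM at 120 days and 69.81, 66.05 and 33.02 FPKM at 30 days. The ages did not overlap, and 30-day replicate 3 was well below the other two 30-day libraries. The log2 fold was 1.02 (SE 0.30, adjusted p = 0.0333 by limma), and 0.68 without 30-day replicate 3 (adjusted p = 0.0074). Without 120-day replicates 1, 2 and 3 the adjusted p was 0.0757, 0.101 and 0.0998. The second decarboxylase gene (Rsa10006759) had 105.55, 133.15 and 123.04 FPKM at 120 days and 69.61, 93.66 and 40.78 FPKM at 30 days. Its ages did not overlap, and its log2 fold of 0.89 missed the threshold (adjusted p = 0.0551 by limma); the adjusted p was 0.0418 without 30-day replicate 3, 0.019 without 30-day replicate 2 and 0.0324 after median centring.

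The next 2 enzymes, both oxidases, were not called in any of their 3 genes. Coproporphyrinogen-III oxidase (Rsa10012494) had 40.46, 51.77 and 46.65 FPKM at 120 days and 43.36, 59.90 and 41.57 FPKM at 30 days. Its ages overlapped, with a log2 fold of -0.05 (95% interval -0.51 to 0.41, adjusted p = 0.85 by limma) that was 0.39 after median centring and 0.28 after quantile normalization. The protoporphyrinogen oxidase 2 genes had log2 folds of 0.12 (Rsa10001784, adjusted p = 0.562 by limma; 0.0475 after median centring) and -0.27 (Rsa10001201, adjusted p = 0.188 by limma). The sign of Rsa10001201 turned under median centring, to 0.16, and under quantile normalization, to 0.15. These were among the least abundant genes of the pathway, at no more than 7.93 FPKM in any library.

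**Figure D2:**
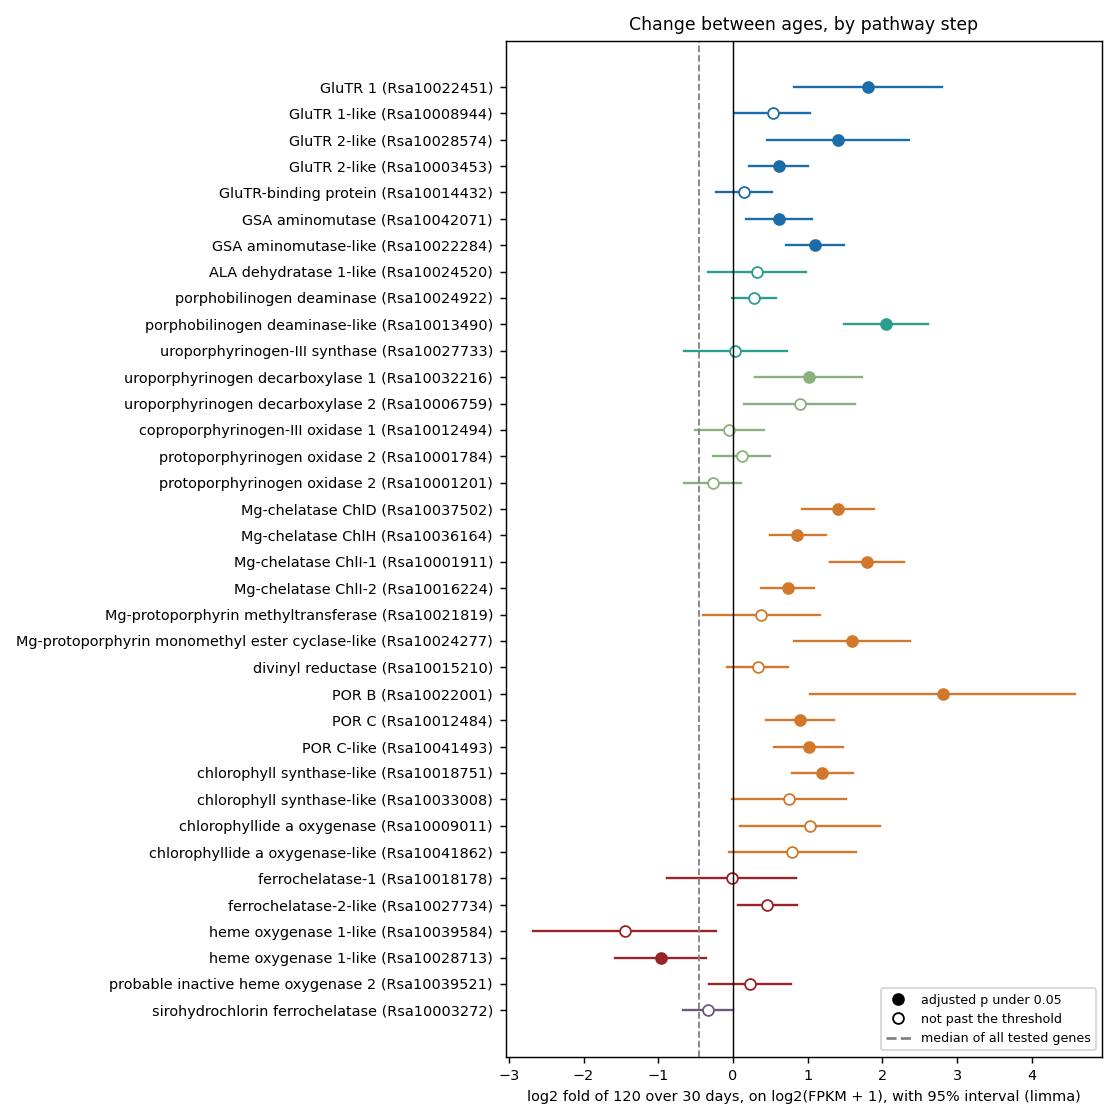
log2 fold of 120 over 30 days for the 36 tested genes with its 95% interval (limma on log2(FPKM + 1)), coloured by branch of the pathway, with the all-gene median of -0.45 as a reference line. The magnesium branch lies right of 0 in all 14 genes, from 0.33 to 2.81, and both heme oxygenase 1-like genes lie furthest to the left.

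The magnesium branch, which leads to chlorophyll, held more transcripts than any other branch and had 9 of its 14 tested genes higher and none lower at 120 days, with a median log2 fold of 0.95. Its summed level was 1486, 1741 and 1807 FPKM at 120 days and 827, 912 and 619 FPKM at 30 days. Without 30-day replicate 3 the count was 11 higher and the median 1.01.

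Magnesium chelatase, the enzyme at the fork, was higher in all 4 of its subunit genes. ChlH carries the porphyrin, and ChlI and ChlD form the motor that drives magnesium in. The ChlI-1 gene (Rsa10001911; R02, 8848749 to 8849885, plus strand) had 157.06, 184.53 and 207.70 FPKM at 120 days and 61.23, 55.29 and 41.10 FPKM at 30 days. Its ages were far apart, with a log2 fold of 1.79 (SE 0.21, adjusted p = 0.0029 by limma). ChlD (Rsa10037502) had 75.92, 86.94 and 89.11 FPKM at 120 days and 33.04, 38.00 and 23.68 FPKM at 30 days, a log2 fold of 1.41 (SE 0.20, adjusted p = 0.00449 by limma). ChlH (Rsa10036164) had 86.34, 79.04 and 87.87 FPKM at 120 days and 51.02, 48.52 and 39.01 FPKM at 30 days, a log2 fold of 0.86 (SE 0.16, adjusted p = 0.00784 by limma). These 3 genes kept their calls under every alternative. ChlI-2 (Rsa10016224) had 42.29, 47.43 and 51.22 FPKM at 120 days and 25.72, 31.63 and 26.35 FPKM at 30 days, without overlap. Its log2 fold was 0.73 (adjusted p = 0.011 by limma), with an adjusted p of 0.0513 without 120-day replicate 2 and 0.0523 without 120-day replicate 3.

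The methyltransferase that follows was not called, and the cyclase after it was higher. Magnesium protoporphyrin IX methyltransferase (Rsa10021819) had 173.41, 196.27 and 224.46 FPKM at 120 days and 161.99, 222.15 and 95.18 FPKM at 30 days. Its ages overlapped, and its log2 fold of 0.38 (95% interval -0.40 to 1.16, adjusted p = 0.357 by limma) was 0.05 without 30-day replicate 3. The cyclase, which forms the fifth ring of chlorophyll, was the most abundant transcript of the pathway at 120 days (Rsa10024277; R05, 13426201 to 13428561, minus strand). It had 402.24, 450.37 and 463.97 FPKM at 120 days and 180.75, 191.03 and 87.66 FPKM at 30 days. Every 120-day library held at least 2 times the level of any 30-day library; the log2 fold was 1.59 (SE 0.32, adjusted p = 0.011 by limma), 1.23 without 30-day replicate 3, and the call stood under every alternative. At 30 days its mean of 153 FPKM was below those of the methyltransferase (159.8 FPKM) and heme oxygenase 1-like Rsa10028713 (191 FPKM), within the spread of the libraries. The divinyl reductase (Rsa10015210), which reduces a vinyl side chain, had 103.58, 114.66 and 126.94 FPKM at 120 days and 91.46, 104.96 and 78.53 FPKM at 30 days. Its ages overlapped, and its log2 fold was 0.33 (adjusted p = 0.155 by limma; 0.036 after median centring).

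Protochlorophyllide reductase (POR), the light-driven step, was higher at 120 days in its 3 expressed genes. POR B (Rsa10022001; R02, 4901441 to 4903150, minus strand) had the largest log2 fold of the 36 genes. It had 138.94, 203.10 and 166.91 FPKM at 120 days and 44.71, 43.76 and 5.84 FPKM at 30 days. The ages did not overlap, and 30-day replicate 3 was lower than the other two 30-day libraries by a wide margin. Its log2 fold was 2.81 (SE 0.74, adjusted p = 0.0235 by limma) and 1.90 without that library (adjusted p = 0.00171). The adjusted p was 0.0586, 0.0784 and 0.0741 without 120-day replicates 1, 2 and 3.

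POR C (Rsa10012484; R06, 22591543 to 22593066, plus strand) had 95.76, 104.54 and 129.70 FPKM at 120 days and 52.60, 53.62 and 69.39 FPKM at 30 days. Here 30-day replicate 3 was the highest of the 30-day libraries, the opposite of POR B. The log2 fold was 0.90 (SE 0.19, adjusted p = 0.012 by limma; 0.0503 without 120-day replicate 3). The POR C-like gene (Rsa10041493) had 57.13, 83.89 and 67.87 FPKM at 120 days and 30.03, 38.72 and 32.73 FPKM at 30 days, a log2 fold of 1.01 (SE 0.19, adjusted p = 0.00882 by limma) that kept its call under every alternative. POR A (Rsa10002502), the form of dark-grown seedlings in Arabidopsis, was not tested. It read 0.17, 0.18 and 0.09 FPKM at 120 days and was listed at 0 in the 3 libraries of 30 days.

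The last steps attach the phytol tail and make chlorophyll b. One chlorophyll synthase-like gene (Rsa10018751; R02, 10552446 to 10554773, plus strand) had 30.88, 40.85 and 39.78 FPKM at 120 days and 14.43, 14.56 and 17.97 FPKM at 30 days. The ages did not overlap, and the log2 fold of 1.19 (SE 0.17, adjusted p = 0.00438 by limma) kept its call under every alternative. The second (Rsa10033008) had 84.45, 100.27 and 103.34 FPKM at 120 days and 51.15, 38.47 and 90.91 FPKM at 30 days, where 30-day replicate 3 overlapped the 120-day values. Its log2 fold was 0.75 (adjusted p = 0.0929 by limma), and 1.09 without that library (adjusted p = 0.00489). Chlorophyllide a oxygenase, which makes chlorophyll b, had log2 folds of 1.03 (Rsa10009011, adjusted p = 0.0692 by limma) and 0.79 (Rsa10041862, adjusted p = 0.108 by limma), neither with overlap. Without 30-day replicate 3, which had the lowest value for both, Rsa10009011 had 0.58 (adjusted p = 0.0246), and its adjusted p was 0.0465 without 30-day replicate 2, 0.0426 after median centring and 0.0443 after quantile normalization. Rsa10041862 had 0.39 without 30-day replicate 3 (adjusted p = 0.0972), and an adjusted p of 0.0429 after quantile normalization.

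The heme and bilin branch had none of its 5 genes higher and 1 lower, against backgrounds of 8.40% higher and 37.6% lower. Without 30-day replicate 3 it had 1 higher and 2 lower. Its median log2 fold was -0.02, above the all-gene median of -0.45. That median was 0.41 after median centring and 0.37 after quantile normalization, each with 1 gene higher and 0 lower. The branch summed to 215, 231 and 228 FPKM at 120 days and to 240.1, 272 and 376 FPKM at 30 days. Ferrochelatase-1 (Rsa10018178) had 28.12, 20.69 and 12.85 FPKM at 120 days and 26.13, 13 and 23.21 FPKM at 30 days, with ages that overlapped throughout. Its log2 fold was -0.02 (95% interval -0.88 to 0.84, adjusted p = 0.961 by limma), and 0.41 after median centring or 0.37 after quantile normalization. Ferrochelatase-2-like (Rsa10027734), a counterpart of the photosynthetic-tissue form of Arabidopsis, had 94.57, 100.53 and 102.92 FPKM at 120 days and 71.80, 61.38 and 83.87 FPKM at 30 days, without overlap. Its log2 fold of 0.46 missed the threshold (adjusted p = 0.057 by limma), and passed it without 30-day replicate 3 (0.0143), after median centring (0.0134) and after quantile normalization (0.0344).

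Heme oxygenase opens the heme ring. The abundant heme oxygenase 1-like gene (Rsa10028713; R01, 8502240 to 8503231, minus strand) was the one gene of the pathway called lower. It had 83.34, 97.31 and 101.09 FPKM at 120 days and 133.95, 187.74 and 250.02 FPKM at 30 days. The ages did not overlap, and the 30-day libraries were more spread than the 120-day ones. The log2 fold was -0.97 (SE 0.25, adjusted p = 0.0227 by limma), against the all-gene median of -0.45. The call was lost after median centring (adjusted p = 0.204) and quantile normalization (0.0847), and without 120-day replicates 1, 2 and 3 (0.0768, 0.0726 and 0.0662).

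The second heme oxygenase 1-like gene (Rsa10039584) was rare, at 0.46, 0.25 and 0.51 FPKM at 120 days and 1.14, 2.01 and 7.8 FPKM at 30 days, and entered the test only through its 30-day values. Its log2 fold of -1.45, or -0.86 without 30-day replicate 3, is therefore given as a description. The probable inactive heme oxygenase 2 (Rsa10039521) had a log2 fold of 0.23 (adjusted p = 0.435 by limma). Sirohydrochlorin ferrochelatase (Rsa10003272), the iron-inserting enzyme of the siroheme branch, had 15.30, 14.49 and 16.48 FPKM at 120 days and 18.41, 18.47 and 22.41 FPKM at 30 days. All of its 120-day values were below all 30-day values, and its log2 fold of -0.33 (adjusted p = 0.0915 by limma) turned to 0.10 after median centring and 0.08 after quantile normalization.

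**Figure D3:**
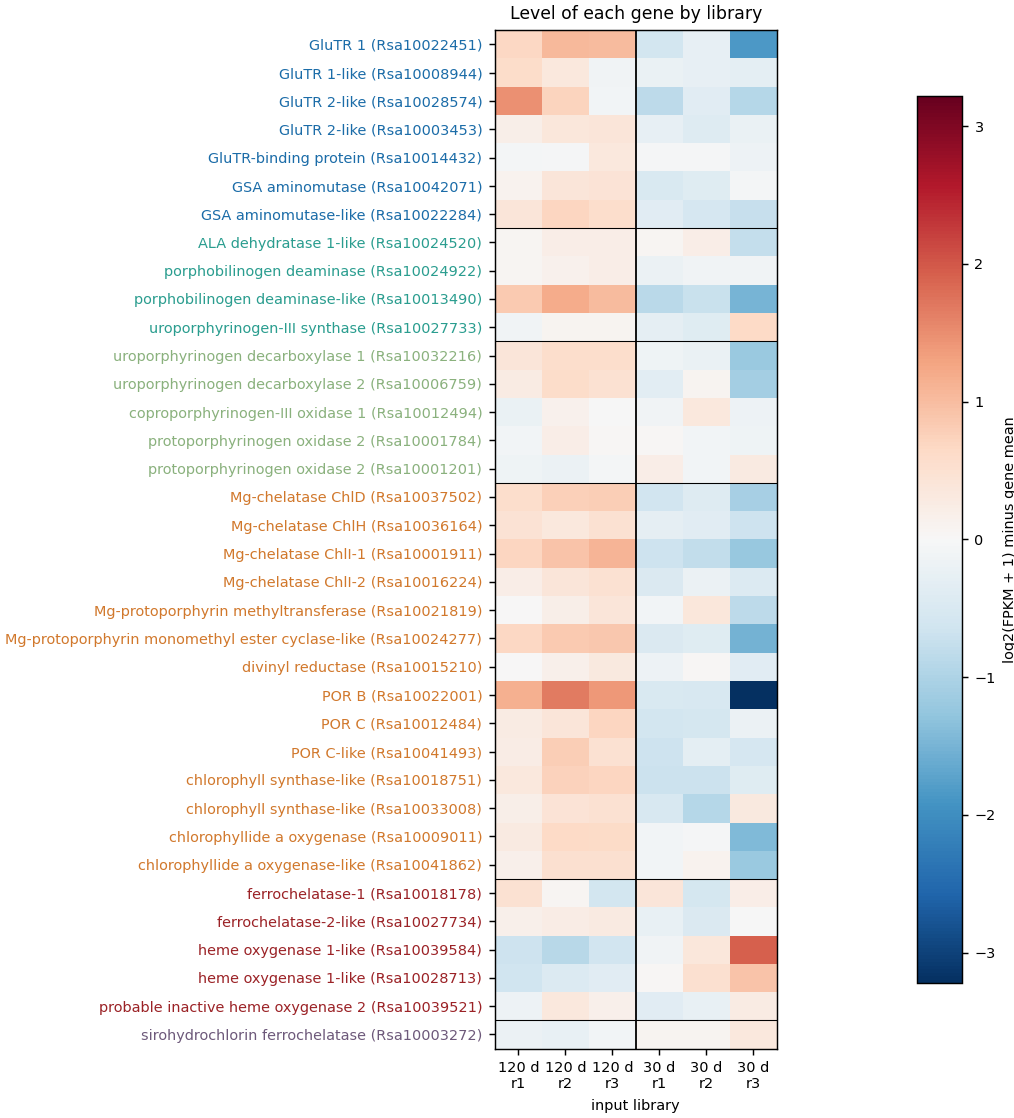
log2(FPKM + 1) of each tested gene minus its mean over the 6 input libraries, red above and blue below the mean, with 120-day libraries left and 30-day libraries right of the black line. The column of 30-day replicate 3 holds the deepest blue, at POR B, and the deepest red, at heme oxygenase 1-like Rsa10039584.

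Much of the spread among 30-day values came with replicate 3, as the map of levels by library shows. Of the 36 tested genes, 20 were lowest in that library among the 30-day libraries, 12 were highest and 4 lay between, whereas over all tested genes 39.1% were lowest and 39.7% highest there. The lowest values included POR B, GluTR 1, the cyclase, both uroporphyrinogen decarboxylases and both chlorophyllide a oxygenases. The highest included uroporphyrinogen-III synthase, both heme oxygenase 1-like genes and POR C. The antenna genes, which code for the chlorophyll a-b binding proteins, took 3.52, 4.91 and 4.71% of all FPKM at 120 days and 0.548, 0.671 and 0.126% at 30 days, again lowest in replicate 3. GIGANTEA (Rsa10001141), a clock gene with a daily rhythm in Arabidopsis, had 2.72, 5.78 and 3.95 FPKM at 120 days and 14.26, 15.4 and 1.35 FPKM at 30 days. It was picked after its values were seen from 40 time-of-day genes. Of the 29 tested, 1 was higher and 12 lower (background 8.40 and 37.6%). The list summed to 440.3, 493 and 526 FPKM at 120 days and to 503, 485 and 707 FPKM at 30 days. That sum was highest in 30-day replicate 3, where GIGANTEA was lowest. Many chlorophyll genes cycle through the day, the sources used here do not give the hour of sampling, and its part in these differences was not tested.

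For some enzymes encoded by several genes, the share of each copy in the summed FPKM, which is scaled per length, differed by age without overlap. For uroporphyrinogen decarboxylase, chlorophyll synthase, ferrochelatase and 3 of the 4 GluTR genes the shares of the ages overlapped. POR B made up 47.6, 51.8 and 45.8% of POR transcripts at 120 days and 35.1, 32.2 and 5.41% at 30 days. POR C made up 32.8, 26.7 and 35.6% at 120 days and 41.3, 39.4 and 64.3% at 30 days. POR B was therefore the leading POR gene in each 120-day library and POR C in each 30-day library, with no overlap in either share. The deaminase-like gene Rsa10013490 held 59.8, 64.3 and 60.4% of porphobilinogen deaminase transcripts at 120 days and 34.3, 35.1 and 23.5% at 30 days, so the leading copy differed here as well. Among magnesium chelatase genes, which are different subunits apart from the ChlI pair, ChlI-1 held 43.4, 46.4 and 47.6% of transcripts at 120 days and 35.8, 31.9 and 31.6% at 30 days, again without overlap. Chlorophyllide a oxygenase Rsa10009011 held 78.3, 78.3 and 77.9% at 120 days and 77.3, 75.2 and 76.4% at 30 days, close together though without overlap. With 3 libraries per age an exact two-sided permutation test of a share cannot go below p = 0.1, so no test is given.

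**Figure D4:**
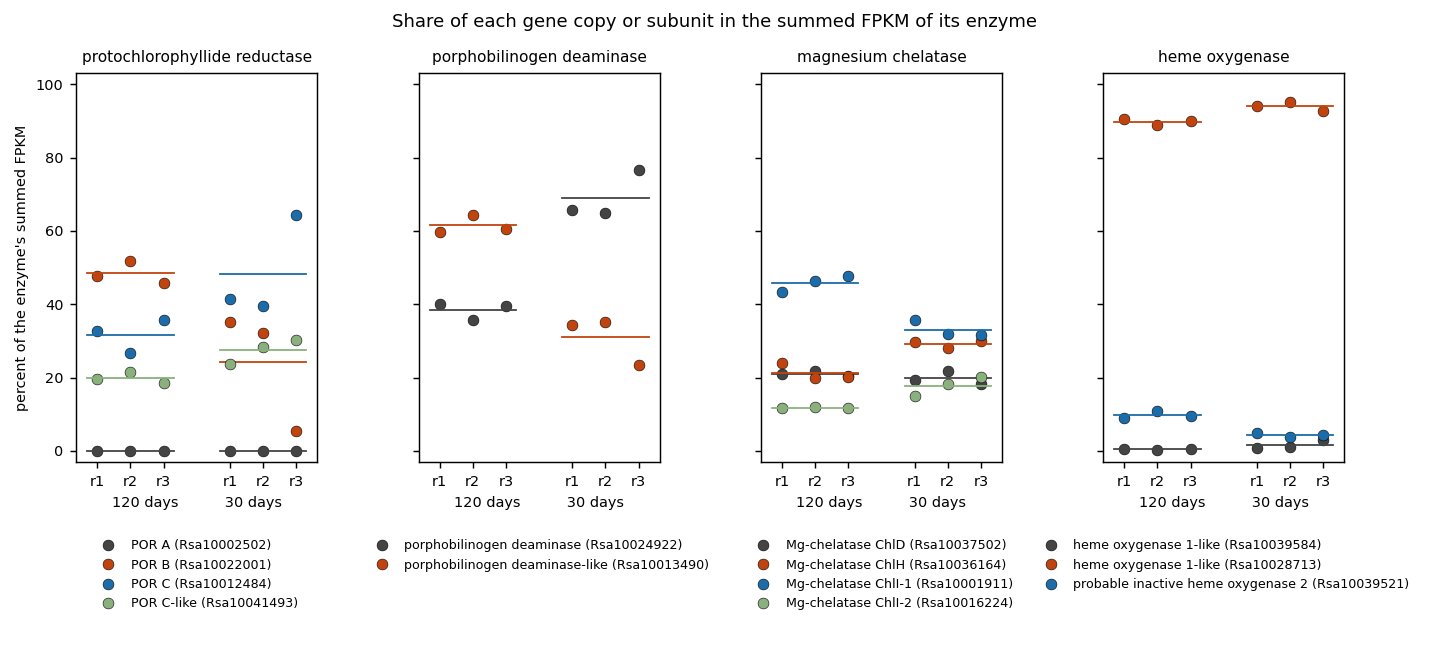
Percent of the summed FPKM of an enzyme held by each of its genes in each library, for protochlorophyllide reductase, porphobilinogen deaminase, magnesium chelatase and heme oxygenase, with bars at the mean of each age. POR B and the deaminase-like gene hold the larger share in every 120-day library and a smaller one in every 30-day library.

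In position, 36 of the 37 genes lay on the 9 chromosomes R01 to R09 and POR A lay on Scaffold301. Uroporphyrinogen-III synthase (Rsa10027733) and ferrochelatase-2-like (Rsa10027734) were direct neighbours on R05, on opposite strands and 3446 bases apart. Their log2 folds were 0.03 and 0.46, and neither was called. The genes of the other enzymes with several copies were mostly on different chromosomes; the protoporphyrinogen oxidase 2 genes lay 57908 bases apart on R07 with 12 genes between them. No other listed gene overlapped any of the 37. How reads were shared between similar copies is not stated, so levels of copies that share sequence are uncertain.

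Genes that work beside these enzymes gave the following counts, against the same backgrounds of 8.40% higher and 37.6% lower. Of 6 genes for tetrapyrrole regulators and carriers, 2 were higher and none lower. Both were tetrapyrrole-binding proteins, the name given to GUN4 of Arabidopsis, which stimulates magnesium chelatase. Rsa10024130 averaged 54.9 ± 4.15 FPKM at 120 days and 18.7 ± 2.46 FPKM at 30 days (SD, n = 3 each; log2 fold 1.51, adjusted p = 0.00229 by limma). Rsa10024129 averaged 63.5 ± 7.04 FPKM at 120 days and 20.3 ± 3.42 FPKM at 30 days (log2 fold 1.61, adjusted p = 0.00259 by limma). Of 13 tested genes for phytol and plastid isoprenoid supply, 3 were higher and none lower. The geranylgeranyl diphosphate reductase-like gene Rsa10034251, whose enzyme makes the phytol tail, averaged 175 ± 34.1 FPKM at 120 days and 38 ± 5.75 FPKM at 30 days (log2 fold 2.16, adjusted p = 0.00213 by limma). Geranylgeranyl pyrophosphate synthase (Rsa10026413) had a log2 fold of 0.75 (adjusted p = 0.00796 by limma).

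The antenna proteins that bind chlorophyll had 12 of 23 tested genes higher and 1 lower, with a median log2 fold of 3.29; without 30-day replicate 3 they had 21 higher and 1 lower with a median of 1.90, and after quantile normalization 8 higher. Leaf mesophyll markers, all photosynthesis genes by name, had 22 of 34 higher and 1 lower (background 8.40 and 37.6%), with a median of 1.85. The mesophyll count was 29 higher and 2 lower without 30-day replicate 3, with a median of 1.38, and 9 higher and 0 lower after quantile normalization. The porphyrin and chlorophyll genes, like both lists, had more genes higher than lower at 120 days. After quantile normalization both lists had fewer genes higher than before, and the pathway genes had more, 21 rather than 16. Both lists belong to photosynthesis themselves, and the part of tissue makeup in the difference was not tested. Markers of other tissues were lower in sum in the same 120-day libraries. Guard cell and epidermis markers summed to 74.6, 76.7 and 65.2 FPKM at 120 days and to 191, 121 and 85.2 FPKM at 30 days, with 0 of 11 tested genes called higher and 5 lower. Vascular markers summed to 86.2, 54.1 and 58 FPKM at 120 days and to 254, 241 and 99.2 FPKM at 30 days, with 0 of 6 higher and 2 lower. After median centring the lower counts were 2 and 0. Over all genes tested 37.6% were called lower, and 10.2% after median centring. With so few genes, these counts do not set either list apart from other genes. None of the 3 guard cell and 3 phloem companion cell genes that define those types was at 0, and their part in the result was not tested.

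Chlorophyll breakdown had 3 of 16 genes higher and 5 lower at 120 days (background 8.40 and 37.6%). Its median log2 fold was -0.57, beside -0.45 over all genes tested. Chlorophyllase-1 (Rsa10038302), which removes the phytol tail, averaged 212 ± 38.6 FPKM at 120 days and 19 ± 9.57 FPKM at 30 days (SD, n = 3 each; log2 fold 3.55, adjusted p = 0.0032 by limma). STAY-GREEN 1-like (Rsa10025626), whose Arabidopsis counterpart takes magnesium out of chlorophyll in ageing leaves, had a log2 fold of -2.43 (adjusted p = 0.00527 by limma). The 5 lower genes were 4 STAY-GREEN genes and 1 of 3 genes for pheophytinase, which acts next. That gene (Rsa10036156) had -2.03 (adjusted p = 0.0054 by limma), while the other two had 0.74 (Rsa10005974, adjusted p = 0.436) and 0.58 (Rsa10026433, adjusted p = 0.529). Without 30-day replicate 3 that pair had 1.62 (adjusted p = 0.00631) and 1.44 (adjusted p = 0.00669). Without 30-day replicate 3 the breakdown list had 7 higher and 5 lower (background 10.2 and 42.8%).

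Of 22 tested golden2-like and light-signalling regulators, 10 were lower and none was higher (background 37.6 and 8.40%), with a median log2 fold of -0.84. After median centring 1 was higher and 6 lower (background 13.8 and 10.2%). Without 30-day replicate 3, 1 was higher and 16 lower (background 10.2 and 42.8%), with a median of -1.13. HY5 (Rsa10013670), which activates light-induced genes in Arabidopsis, averaged 5.85 ± 1.65 FPKM at 120 days and 51.7 ± 26.3 FPKM at 30 days (SD, n = 3 each; log2 fold -2.86, adjusted p = 0.00367 by limma). The HY5-like gene Rsa10025049 averaged 4.73 ± 0.612 FPKM at 120 days and 33.3 ± 6.99 FPKM at 30 days (log2 fold -2.56, adjusted p = 0.00153 by limma). GLK2-like (Rsa10021612), a counterpart of the Arabidopsis activators of chlorophyll and antenna genes, had a log2 fold of -1.50 (adjusted p = 0.00402 by limma). GLK1-like (Rsa10028877) had -0.31 (adjusted p = 0.583), and -0.85 without 30-day replicate 3 (adjusted p = 0.00459). Of 5 HY5 and HY5-like genes, 4 were lower. The calls of Rsa10042547 and Rsa10035018 were lost after median centring (adjusted p = 0.1 and 0.0909 by limma). Both were also lost after quantile normalization and without each 120-day replicate in turn. Any part of these regulators in the levels of the magnesium branch was not tested.

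The products of the side branches gave smaller counts. Phytochrome apoproteins and bilin synthesis had 0 of 6 tested genes higher and 2 lower (background 8.40 and 37.6%). After median centring 1 was lower (background 10.2%). Phytochrome B (Rsa10032063), the main red-light receptor of green Arabidopsis plants, averaged 4.11 ± 0.387 FPKM at 120 days and 9.87 ± 0.414 FPKM at 30 days (SD, n = 3 each; log2 fold -1.09, adjusted p = 0.00327 by limma). Phytochrome C (Rsa10016875) had -0.53 (adjusted p = 0.0294 by limma), a call lost under 8 of 16 alternatives, with an adjusted p of 0.64 after median centring. Of the 3 siroheme-dependent enzyme genes, 1 was higher, nitrite reductase-like Rsa10025772, at 110.4 ± 12.4 FPKM at 120 days and 47.4 ± 14.5 FPKM at 30 days (log2 fold 1.25, adjusted p = 0.0121 by limma; 0.0523 without 120-day replicate 3). The other two had log2 folds of 0.72 (Rsa10015339, adjusted p = 0.0801) and 0.54 (Rsa10005968, adjusted p = 0.101). All 3 were higher without 30-day replicate 3 and after median centring, and 2 after quantile normalization (background 10.2, 13.8 and 12.4% higher). The 3 glutamate-tRNA ligase genes, which supply the substrate of GluTR, had none called and a median log2 fold of -0.25. Another 39 tested genes are annotated to the porphyrin and chlorophyll map of KEGG. Of these, 6 were higher and 12 lower, with a median of -0.47, beside 16 and 1 of the 36. Over all genes tested 8.40% were higher and 37.6% lower, with a median of -0.45. The GluTR-binding protein, among the 36, is not annotated to that map. Without 30-day replicate 3 the 39 genes had 10 higher and 14 lower (background 10.2 and 42.8%).

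The authors' deposited table of differential m6A peaks held 8 peaks in 7 of the 37 genes. All 7 were tested for expression, so 19.4% of the 36 tested genes had a peak, against 23.3% of all tested genes; over the whole expression table the background was 17.2%. In the authors' deposited table all 8 peaks were higher at 120 days, as were 96.8% of all 5476 peaks. Their log2 folds ranged from 0.31 to 0.57 with a median of 0.45, beside a median of 0.50 and quartiles of 0.37 and 0.69 over all peaks of the authors' deposited table. The peaks of these genes thus lay within the range of other peaks. The list holds differential peaks only, so a gene without an entry is not shown to lack m6A, and the sources used here do not say whether the folds are corrected for the transcript level in the input.

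Of the 8 peaks, 6 reached the 3′ end of the gene, as did 70.0% of all peaks. The 2 in ChlI-2 lay inside the gene, 867 and 2273 bases from its 3′ end. By annotation 4 of the 8 peaks were in the 3′ UTR, as were 34.5% of all peaks, and 4 were exonic. The steepest in the authors' deposited table was in divinyl reductase (R07, 24267565 to 24267804), with a log2 fold of 0.57 and an FDR of 2.00e-39. That in coproporphyrinogen-III oxidase (R06, 22557574 to 22558168, 3′ UTR) had 0.45 and an FDR of 5.01e-29 in the authors' deposited table, and that in the GluTR-binding protein (R05, 30748294 to 30748646, 3′ UTR) had 0.36 and an FDR of 3.31e-08. None of these 3 genes was called for expression.

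The other 4 genes with a peak were called higher in transcript level at 120 days. In the authors' deposited table the 2 aminomutase genes had a peak each, of log2 fold 0.50 at R05, 6043700 to 6043878 (FDR 3.98e-20, exonic, Rsa10042071) and 0.36 at R09, 882400 to 882755 (FDR 3.16e-12, 3′ UTR, Rsa10022284). POR C had one of 0.46 at R06, 22592725 to 22593066 (FDR 1.00e-14, exonic) in the authors' deposited table. ChlI-2 had 2, of 0.48 at R01, 33400284 to 33400913 (FDR 1.00e-11, 3′ UTR) and of 0.31 at 33399447 to 33399507 (FDR 0.00661, exonic), the weakest of the 8 in the authors' deposited table. GluTR 1, POR B, ChlI-1, ChlD, ChlH and the cyclase had no entry among the differential peaks.

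**Figure D5:**
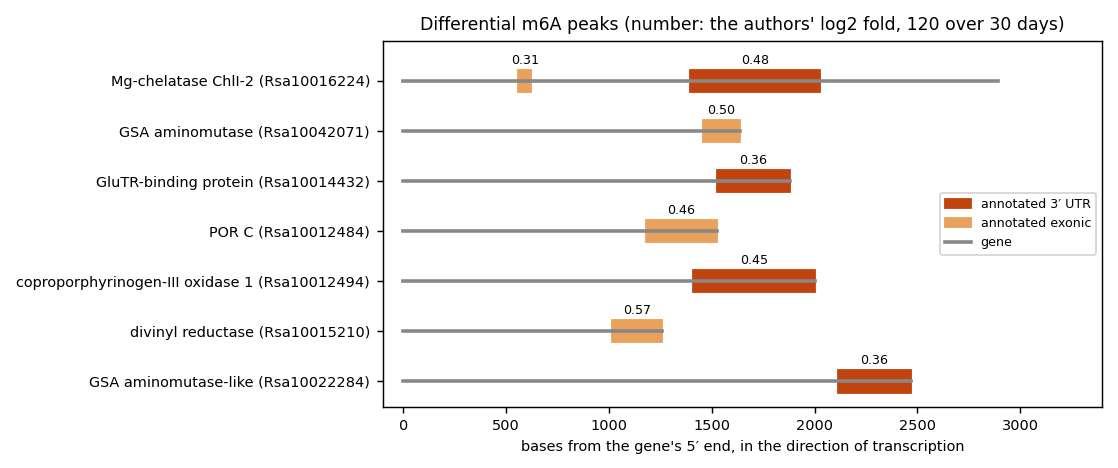
Position of the 8 differential m6A peaks of the authors' deposited table within the 7 genes that hold them, in bases from the 5′ end of each gene, with the authors' log2 fold, 120 over 30 days, above each peak. Of the 8 peaks, 6 end at the 3′ end of the gene and both peaks of ChlI-2 lie inside it.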

How the data were processed

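The authors deposited FPKM for 6 input libraries (3 per age) with their fold changes and p-values, and a list of differential m6A peaks with log2 folds and p and FDR values, per the file headers. The submitters' processing notes name fastp, FastQC, HISAT2, StringTie, HOMER and edgeR without versions; roles, genome build and peak caller are not given in the sources used here. FPKM keeps no read depth, so no counting error or count test could be given.

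Genes that reached 1 FPKM in 3 or more input libraries (21435 of 30161) were tested on log2(FPKM + 1) with limma 3.58.1 (R 4.3.3; empirical Bayes with trend, two-sided), Benjamini-Hochberg over all of them, threshold 0.05. Folds on this scale understate changes of low genes. Alternatives were 16 settings of pseudocount, filter, scaling, weights, replicate block and left-out libraries; scaling to an equal FPKM sum was chosen after seeing the data. Peak starts were read as 0-based, since 0 minus-strand peaks start at the gene start and 1654 start 1 base before it, and are printed 1-based.

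The genes and the 13 other lists were chosen with earlier results of these data known. All pathway genes are described. From the pathway lists, the called genes among the 2 of smallest p per list are named. AGL3, the pheophytinases, GLK2-like, GLK1-like and GIGANTEA are also named, chosen after their values were seen. Further HY5-like genes, and the siroheme-dependent enzyme genes that were not called, are named outside this rule too.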

Additional observations from a re-analysis of the deposited data

How the results depend on the processing

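Of the 17 pathway genes called, 8 kept their call under all 16 alternatives. The 16 genes higher became 26 under array weights, a fit that did not reach its convergence tolerance, and 9 to 20 with 1 library left out. The 1 gene lower became 2 with a pseudocount of 0.1 or 0.5, 0 under median centring or quantile normalization, 4 under array weights and 0 to 2 with 1 library left out. Over all genes, 1801 higher became 2968 under median centring, 2957 under array weights and 954 to 2197 with 1 library left out. The 8052 lower became 2188 under median centring, 2799 under quantile normalization, 13600 under array weights and 3789 to 9166 with 1 library left out. The cause was not tested.

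Signs turned in 5 genes, none of them called. Uroporphyrinogen-III synthase (Rsa10027733) had -0.05 at an equal FPKM sum and -0.15 to 0.36 with 1 library left out. Coproporphyrinogen-III oxidase (Rsa10012494) had 0.39 under median centring, 0.28 under quantile normalization, 0.13 under array weights and -0.14 to 0.12 with 1 library left out. Under median centring and quantile normalization, Rsa10001201 had 0.16 and 0.15, ferrochelatase-1 (Rsa10018178) 0.41 and 0.37, and Rsa10003272 0.10 and 0.08; ferrochelatase-1 had -0.31 to 0.26 with 1 library left out.

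Same-numbered libraries correlated in their deviations at 0.272, 0.142 and 0.0814, each the best match of its number, which is a hint from the data and no shared source. With the replicate block, 15 pathway genes were higher, without GluTR 2-like Rsa10003453 (adjusted p = 0.0571 by limma), and 2 lower, and 1733 and 6875 genes in all. All 8 peaks have an FDR of at most 0.01, and 0 reach a log2 fold of 2.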
